A study of Mus musculus with 13 samples.

Results

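Tbx2, Tbx3, Tbx4, Tbx5, Tbx15 and Tbx18 are 6 of the 24394 gene symbols counted in 13 mouse RNA libraries, and all 6 passed the filter on low counts. They were chosen by the levels of Tbx2. Its levels were far higher in every group of induced cells than in control fibroblasts, but not in fetal thymic epithelial cells (TEC). Those levels are therefore given as a description with no test. The other 5 genes were tested.

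T-box genes encode transcription factors that share a DNA-binding domain, the T-box. Tbx2 and Tbx3 act mostly as repressors and are known from limb, heart and mammary gland, where BMP signals induce Tbx2. Tbx4 and Tbx5 are activators that hind limb and forelimb buds need for outgrowth. Tbx15 and Tbx18 are made in mesenchyme of limb and trunk, and Tbx18 also in somites and epicardium. Fibroblasts keep region-specific levels of such genes in culture.

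The fibroblasts (MEF, n = 2) were primary cells from E13.5 embryos with the genotype iFoxn1/+, in which Cre switches on a copy of Foxn1, the transcription factor that TEC need to form, and they received no Cre. Induced cells (iTEC) were such fibroblasts given the Cre plasmid pPGK-Cre-bpA by nucleofection and taken at day 2 (n = 2), day 10 (n = 3) or day 12. Cells of day 12 were sorted on Epcam into a negative (n = 2) and a positive group (n = 2). Epcam is a surface protein of epithelial cells. Fetal TEC (n = 2) came from E15.5 and were not treated. The genotype field reads N/A for every sample and 1 protocol text serves all of them, so the genotype of the fetal TEC, and whether day 10 and day 12 cells were sorted for Cre, have no statement in the sources used here. Whether replicates are separate cultures or animals is unstated, so p-values may measure technical spread only.

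Libraries held 35805780 to 86465460 counts, and Foxn1 rose against MEF at day 2 (log2 change 4.44 ± 0.31 SE, adjusted p = 0.000131). In 3 length-skewed libraries, Epcam-positive replicate 2 and both fetal TEC, longer transcripts had lower levels (Spearman rho over genes -0.4645 to -0.3868), whereas rho was 0.2487 to 0.3804 in the remaining 10. Xist, the transcript that silences an X chromosome in female cells, was at 795 CPM or above in MEF and Epcam-negative libraries. It was at 1.34 CPM or below in day 2, day 10 and Epcam-positive libraries, where Y-linked genes summed to at least 46.3 CPM. Fetal TEC held 6.05 and 8.21 CPM of Xist and 40.8 and 32.8 CPM of Y-linked genes. Y-linked genes summed to 0 CPM in MEF and to at most 0.0164 CPM in Epcam-negative libraries. By these values the day 2, day 10 and Epcam-positive cells did not come from the cells of the MEF libraries. The Epcam-positive and Epcam-negative libraries did not share source cells either. Differences between such groups are therefore not changes followed within a culture. The sex of the source cells and their state cannot be told apart in comparisons of MEF with day 2, day 10, Epcam-positive cells or fetal TEC, nor in the sort. The 7 macrophage markers had a sum of 2473 and 2293 CPM in MEF, and of 3.25 to 4.16 CPM from day 2 through the Epcam-negative cells, with the defining C1qa and Adgre1 at 0 there. The sum of 9 fibroblast markers was 58410 and 56720 CPM in MEF and 6858 to 14820 CPM over the same iTEC libraries. Epcam-positive replicates 1 and 2 differed in it (32090 and 1998 CPM) and in the macrophage sum (176 and 7.1 CPM), and fetal TEC held 4200 and 2085 CPM of fibroblast markers. The sum of 9 TEC markers was 24220 and 26810 CPM in fetal TEC, 519 and 593 CPM at day 2, 3305 to 4500 CPM at day 10 and in the Epcam-negative pair and Epcam-positive replicate 1, and 20620 CPM in Epcam-positive replicate 2. Epcam itself stood at 5.09 and 21.6 CPM in the Epcam-positive libraries, 0.639 and 0.335 CPM in the Epcam-negative ones and 5.42 to 5.98 CPM at day 10. In such bulk samples, fewer cells of a type and less RNA per cell cannot be told apart.

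On mm10 the 6 genes lie at 4 places. Tbx2 (chr11:85832551-85841948, plus strand) and Tbx4 (chr11:85886422-85916097, plus strand) are neighbours with 44.5 kb between them. Tbx3 (chr5:119670669-119684724) and Tbx5 (chr5:119832668-119885219) form a second pair on the plus strand, 148 kb apart. Tbx15 (chr3:99240381-99354259, plus strand) and Tbx18 (chr9:87702800-87731260, minus strand) stand alone. Levels below are CPM, which are read counts relative to library size, corrected with TMM factors, for which a floor of 3 counts in 1 library lies at 0.03 to 0.0776 CPM.

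Tbx2 was low in the fibroblasts, high by day 2 and higher at day 10, and it stayed high on both sides of the sort. It measured 4.19 and 2.63 CPM in MEF, 114 and 112 CPM at day 2, and 419, 420 and 412 CPM at day 10. The Epcam-negative pair stood at 577 and 553 CPM and the Epcam-positive pair at 408 and 389 CPM, while fetal TEC held 5.22 and 3.69 CPM. No iTEC library overlapped MEF or fetal TEC, and these last groups overlapped each other.

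Between group means, Tbx2 was 33.1-fold above MEF at day 2 and 122-fold at day 10, so the day 10 mean was 3.69 times the day 2 mean. The Epcam-negative mean was 166-fold and the Epcam-positive mean 117-fold above MEF, and fetal TEC were at 1.31 times MEF. The day 10 mean was 93.6-fold that of fetal TEC. With TMM factors the replicates of each iTEC group lay close together (SD 1.08 CPM at day 2, 3.99 at day 10, 16.5 and 13.4 in the Epcam-negative and Epcam-positive pairs). The Epcam-positive libraries, 1 of them length-skewed, lay close in Tbx2 with TMM factors but not by library size alone. By library size they held 433 and 274 CPM, a ratio of 1.58. They lay far apart in Tbx4, Tbx5 and Tbx18. MEF and Epcam-negative libraries lie on the same side of the Xist split, and macrophage markers fell between them as well. By library size alone the Epcam-negative and Epcam-positive means were 649 and 354 CPM, in place of 565 and 399 CPM with TMM factors.

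**Figure D1:**
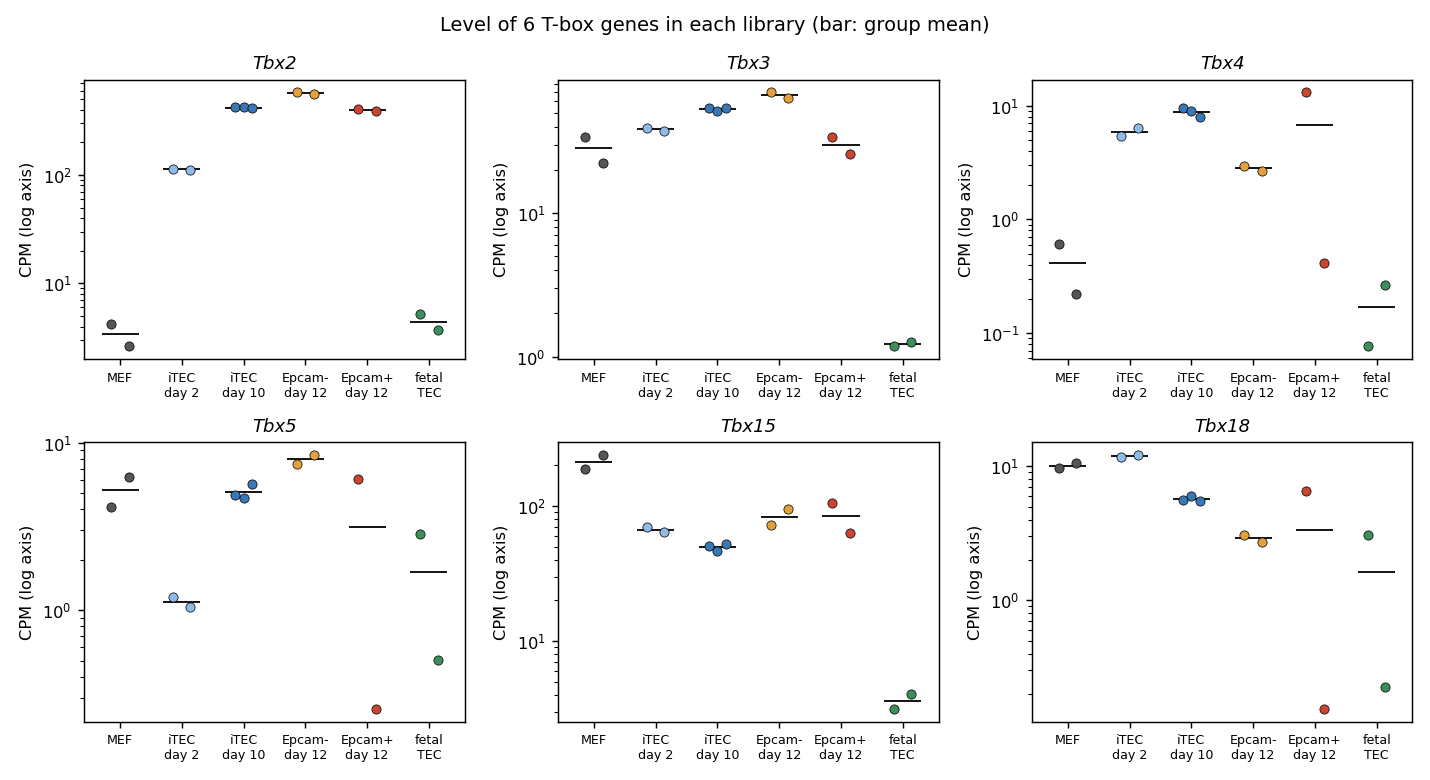
CPM (log axis) of the 6 T-box genes in each of the 13 libraries by group, where points are libraries and bars are group means. Tbx2 stands at 112 CPM or more in every iTEC library and at 5.22 CPM or less in MEF and fetal TEC, and the Epcam-positive points lie far apart for Tbx4, Tbx5 and Tbx18.

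Per length of exon, the leading T-box gene of the 6 differed between the fibroblasts and the induced cells. In MEF, Tbx15 made up 84.1 and 89.1% of the summed CPM per kb of the 6 genes and Tbx2 1.95 and 1.02%. At day 2 Tbx2 made up 52.1 and 53.1% and Tbx15 30.8 and 29.2%. At day 10 the share of Tbx2 was 80.9 to 82.2% and that of Tbx15 8.82 to 9.9%. The Epcam-negative pair (82.9 and 80.1% Tbx2) and the Epcam-positive pair (73.9 and 83.7%) were alike in this. These shares hold Tbx2 itself and carry no test. In fetal TEC all 6 genes were low, with Tbx2 at 1.44 and 1.02 CPM per kb and Tbx15 at 0.842 and 1.09 CPM per kb.

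**Figure D2:**
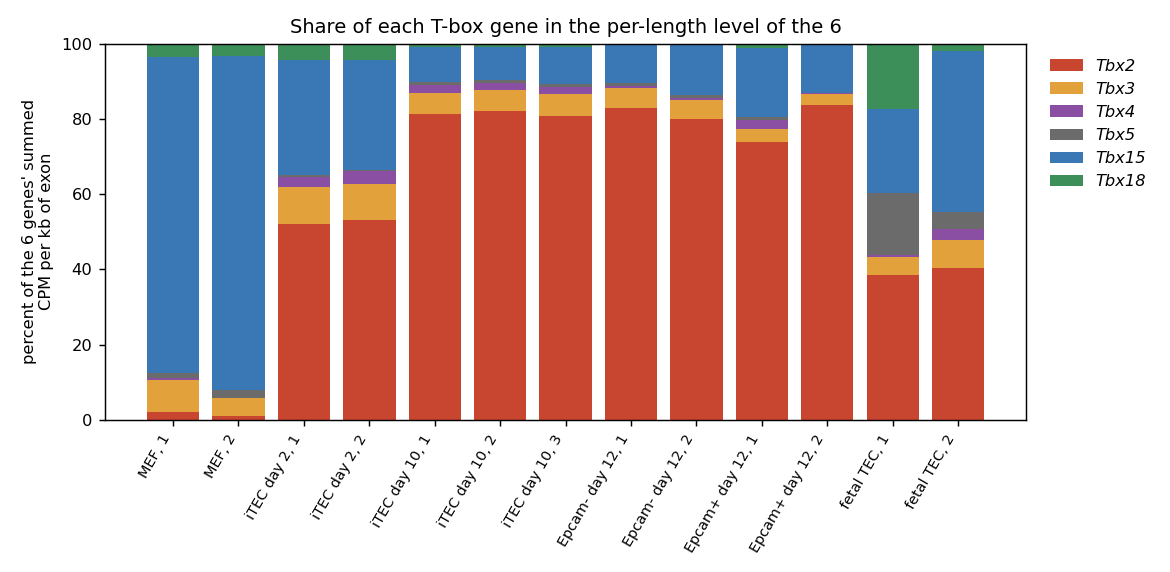
Share of each gene (percent, stacked bars from 0) in the summed CPM per kb of exon of the 6 T-box genes, 1 bar per library. Tbx15 fills 84.1% or more of the MEF bars, and Tbx2 fills 52.1% or more of every iTEC bar.

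Of the 5 other T-box genes, 0 rose and 1 (Tbx15) fell at day 2 against MEF, where 5.52% of all genes tested were called. At day 10 against MEF, 2 rose (Tbx3 and Tbx4) and 1 fell (Tbx15), with 16.0% of all genes called. In Epcam-negative cells against MEF, Tbx3 rose and Tbx15 fell (11.9% of all genes), and in Epcam-positive cells Tbx15 fell (20.3% of all genes). Neither day 10 against day 2 (12.6% of all genes) nor the sort of day 12 (0.259% of all genes) gave a call among the 5 by edgeR. The Wald test of DESeq2 gave 0 calls for day 10 against day 2 (20.0% of all genes called by it) and 1 (Tbx3) for the sort (11.6%). At an unadjusted p under 0.05 edgeR had 0 of the 5 for day 10 against day 2 and Tbx3 alone in the sort. The comparisons with MEF share the same MEF libraries.

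Fetal TEC held less Tbx3 and Tbx15 than MEF (57.8% of all genes called), and day 10 cells held more Tbx3, Tbx4 and Tbx15 than fetal TEC (59.3% of all genes). All libraries share 1 estimate of spread in these tests, so the wide Epcam-positive pair enters each of them. Without the 3 length-skewed libraries, Tbx4, Tbx5 and Tbx15 were called at day 2, and Tbx3, Tbx4, Tbx15 and Tbx18 at day 10, against MEF. In that fit all 5 genes were called in Epcam-negative cells against MEF, and Tbx5, Tbx15 and Tbx18 at day 10 against day 2, with 39.5, 56.6, 53.2 and 51.4% of all genes called in the same order.

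**Figure D3:**
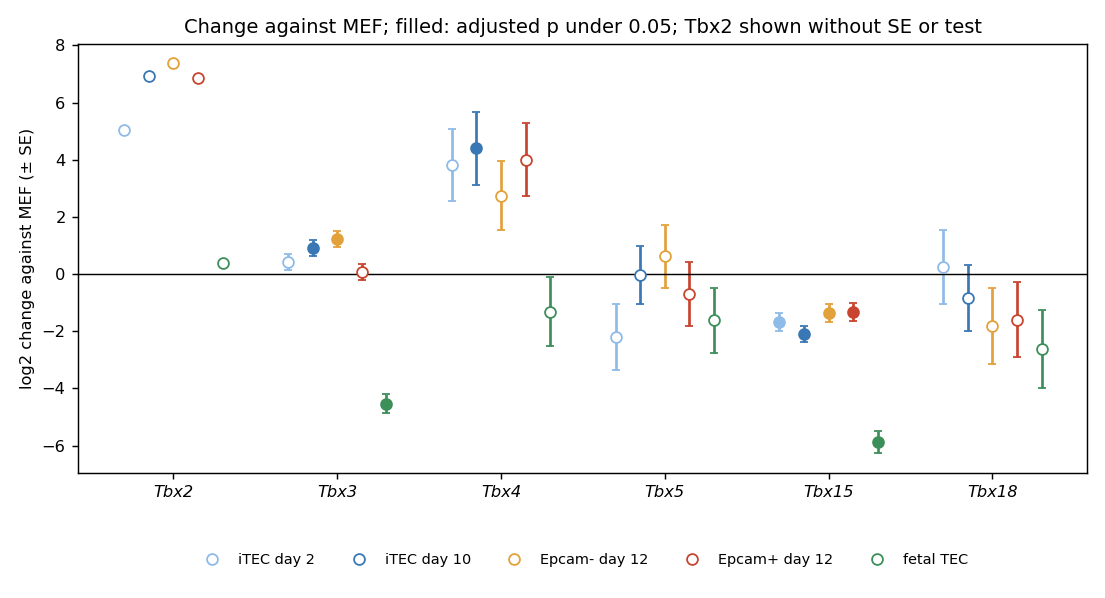
Log2 change of each T-box gene against MEF (± SE) in the 5 other groups, with filled points where the adjusted p of edgeR is under 0.05. Tbx2 is drawn without error or test. Tbx15 lies below 0 in all 5 groups, and Tbx3 and Tbx15 of fetal TEC are the lowest points at -4.54 and -5.87.

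Tbx3, the closest relative of Tbx2 and like it a repressor, had far smaller fold differences among MEF and iTEC. It measured 34.2 and 22.4 CPM in MEF, 39.4 and 37.5 CPM at day 2 and 54.0, 51.5 and 54.4 CPM at day 10. The Epcam-negative libraries held 69.4 and 63.5 CPM, the Epcam-positive ones 33.8 and 25.9 CPM and fetal TEC 1.18 and 1.26 CPM. The Epcam-negative libraries were the highest and did not overlap any other group. The Epcam-positive pair overlapped MEF, and both fetal TEC libraries were far below all others.

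Against MEF, Tbx3 rose at day 10 (log2 0.91 ± 0.27 SE, adjusted p = 0.044) and in Epcam-negative cells (1.23 ± 0.29, adjusted p = 0.0231), but not at day 2 (0.44 ± 0.28, adjusted p = 0.512). The day 10 call was lost in 11 of 22 alternatives, among them without MEF replicate 2 or any 1 of the day 2, day 10 or Epcam-negative libraries (adjusted p up to 0.285). The Epcam-negative call was lost in 9 of 22, without the same libraries (adjusted p up to 0.152). Epcam-positive stood below Epcam-negative cells by a log2 of -1.15 ± 0.29, which did not pass in edgeR (adjusted p = 0.155). It passed by the Wald test of DESeq2 (adjusted p = 7.45e-05) and, with 1 Epcam-positive library left, without replicate 1 or without the 3 length-skewed libraries (0.0358 in the last). In fetal TEC Tbx3 was lower than in MEF (log2 -4.54 ± 0.33, adjusted p = 2.97e-05), while genes of like transcript length had a median log2 of -0.87. The antisense gene Tbx3os1 overlaps Tbx3 exons over 115 bp, and the sources used here do not say whether counting used strand.

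Tbx15, which mesenchyme of the limb, skin and skeleton needs, was the most abundant of the 6 per length in MEF and fell in every other group. It measured 187 and 237 CPM in MEF, 69.4 and 63.7 CPM at day 2 and 50.2, 46.6 and 52.2 CPM at day 10. In the Epcam-negative libraries it was at 71.6 and 94.1 CPM, in the Epcam-positive ones at 105 and 63.1 CPM and in fetal TEC at 3.15 and 4.08 CPM. Both MEF libraries stood above all others and both fetal TEC libraries below, with day 10 lowest among the iTEC.

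The fall of Tbx15 against MEF was a log2 of -1.67 ± 0.32 at day 2 (adjusted p = 0.0157) and -2.09 ± 0.29 at day 10 (adjusted p = 0.00118). It was -1.35 ± 0.32 in Epcam-negative cells (adjusted p = 0.024), -1.33 ± 0.32 in Epcam-positive cells (adjusted p = 0.0208) and -5.87 ± 0.39 in fetal TEC (adjusted p = 1.98e-05). The day 10 and fetal TEC calls held in all alternatives (adjusted p up to 0.0195 and 0.000561). The day 2 call was lost with library size alone and with the replicate block. It was also lost without MEF replicate 2 or either day 2 library (adjusted p up to 0.168). The Epcam-positive call was lost without MEF replicate 2, with the replicate block and with only the groups compared. The Epcam-negative call was lost with the replicate block, and without MEF replicate 2 or any 1 of the day 10 or Epcam-negative libraries (adjusted p up to 0.21). The sums of macrophage and fibroblast markers fell from MEF to iTEC as well, and their part in the fall of Tbx15 was not tested.

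Tbx18, the other gene of this pair and a gene of somite and epicardial mesenchyme, did not pass the test in any of the 8 comparisons. It measured 9.73 and 10.5 CPM in MEF, 11.8 and 12.1 CPM at day 2 and 5.62, 6.0 and 5.48 CPM at day 10. Epcam-negative libraries stood at 3.07 and 2.73 CPM, Epcam-positive ones at 6.56 and 0.154 CPM and fetal TEC at 3.05 and 0.223 CPM. Day 10 and Epcam-negative libraries lay below MEF and day 2 without overlap. The log2 change against MEF was -0.83 ± 1.16 at day 10 and -1.8 ± 1.33 in Epcam-negative cells, and it passed for both when the 3 length-skewed libraries were left out (adjusted p = 0.0013 and 4.12e-05). The gene D030062O11Rik overlaps Tbx18 exons over 970 bp on the other strand.

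Tbx4, the hind limb factor, was low in MEF and stood higher at day 2, at day 10 and in Epcam-negative cells, while 1 of the Epcam-positive libraries overlapped MEF. It measured 0.608 and 0.221 CPM in MEF, 5.4 and 6.42 CPM at day 2 and 9.52, 8.97 and 8.04 CPM at day 10. The Epcam-negative pair held 2.95 and 2.69 CPM, the Epcam-positive pair 13.1 and 0.411 CPM, and fetal TEC 0.0765 and 0.264 CPM. Day 10 replicates were all above day 2, and the Epcam-positive libraries were the highest of the 13 and 1 of the lowest. The low one is the length-skewed library.

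The rise of Tbx4 against MEF was called at day 10 (log2 4.4 ± 1.27, adjusted p = 0.0435) and day 10 cells stood above fetal TEC (log2 5.71 ± 1.38, adjusted p = 0.00698). The day 10 call was lost in 13 of 22 alternatives, including without any 1 library of MEF, day 2, day 10, Epcam-negative cells or fetal TEC (adjusted p up to 0.278). Day 2 (3.82 ± 1.27, adjusted p = 0.13), Epcam-negative (2.75 ± 1.22, adjusted p = 0.188) and Epcam-positive cells (4.01 ± 1.29, adjusted p = 0.0529) did not pass. Without the 3 length-skewed libraries, day 2 and Epcam-negative cells passed (adjusted p = 0.00015 and 0.000513). The Epcam-positive group then has only its library with the high Tbx4 level, so its value in that fit (adjusted p = 8.25e-05) says little of the group. Within the sort Tbx4 was 1.26 higher in log2 on the Epcam-positive side, but -2.77 without Epcam-positive replicate 1. That fit sets the length-skewed library alone against the Epcam-negative pair, and it calls 53.5% of all genes, so no direction is read from it.

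For Tbx4, the 250 bases before the start that RefSeq gives it on GRCm38.p6 (chr11:85896515-85896764, plus strand, inside the span given above) are shown because Tbx4 rose beside Tbx2 and tracked a known regulator of hind limb identity, described below.
Tbx4: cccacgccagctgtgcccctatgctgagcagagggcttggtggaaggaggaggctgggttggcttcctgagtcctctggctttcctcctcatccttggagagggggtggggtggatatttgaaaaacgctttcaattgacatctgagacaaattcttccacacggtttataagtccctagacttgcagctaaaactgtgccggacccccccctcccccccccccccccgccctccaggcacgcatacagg
Neither the T-box motif GGTGTGA nor the Pitx site TAATCC matched this stretch on either strand. Of 32851 RefSeq promoters of this length, 3.33% hold the first and 6.25% the second. No letters are in capitals, since nothing matched.

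Tbx5, the forelimb factor, was not called in any of the 8 comparisons and was lowest among MEF, day 2 and day 10 at day 2. It measured 4.12 and 6.24 CPM in MEF, 1.2 and 1.05 CPM at day 2 and 4.89, 4.64 and 5.69 CPM at day 10. The Epcam-negative libraries held 7.47 and 8.42 CPM, the Epcam-positive ones 6.03 and 0.257 CPM and fetal TEC 2.86 and 0.507 CPM. Day 2 lay below MEF and below day 10 without overlap, and day 10 overlapped MEF. The day 2 difference did not pass (log2 -2.2 ± 1.16, adjusted p = 0.388), nor did day 10 against day 2 (2.17 ± 1.11, adjusted p = 0.263). Both passed without the 3 length-skewed libraries (adjusted p = 0.000365 and 0.000169), as they did without either Epcam-positive library.

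Among the genes next to Tbx2, the transcript that starts beside it rose in the later iTEC groups. 2610027K06Rik (chr11:85791661-85832223, minus strand), annotated as a processed transcript, starts 328 bp before Tbx2 and runs away from it, with no exon in common. It measured 0.111 and 0 CPM in MEF, 0.871 and 0.883 CPM at day 2 and 6.12, 7.25 and 5.38 CPM at day 10. In the Epcam-negative libraries it was at 9.01 and 10.3 CPM, in the Epcam-positive ones at 6.72 and 16.6 CPM and in fetal TEC at 0.168 and 0 CPM. All iTEC libraries were above MEF and fetal TEC, and all later ones above day 2.

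2610027K06Rik rose against MEF at day 10 (log2 6.67 ± 1.42, adjusted p = 0.0121), in Epcam-negative cells (7.29 ± 1.48, adjusted p = 0.0126) and in Epcam-positive cells (7.57 ± 1.49, adjusted p = 0.01). At day 2 the change did not pass (3.84 ± 1.3, adjusted p = 0.136). It passed in 5 of 22 alternatives, namely the Wald test of DESeq2 and the fits without either or both Epcam-positive libraries or without the 3 length-skewed ones (adjusted p = 0.00179 in the last). Without MEF replicate 2 the 3 calls were lost, and without Epcam-negative replicate 2 the Epcam-negative one (adjusted p up to 0.0805 for that group). The day 10 call was also lost with the replicate block. Day 10 stood above fetal TEC (6.12 ± 1.37, adjusted p = 0.005).

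Bcas3, a gene of cell movement whose span ends 6.49 kb from Tbx2 and overlaps that of 2610027K06Rik on the other strand, rose too. Use of strand in the counting is unstated, so reads of the overlap cannot be told apart. It measured 24.6 and 19.8 CPM in MEF, 57.3 and 55.0 CPM at day 2, and 65.9, 62.7 and 65.0 CPM at day 10. The day 12 libraries stood at 48.6 to 87.9 CPM and fetal TEC at 24.6 and 51.3 CPM. It rose at day 10 (log2 1.54 ± 0.37, adjusted p = 0.0207). That call was lost with the replicate block and without either MEF library or any 1 day 10 library (adjusted p up to 0.164). In Epcam-negative cells it rose by 1.47 ± 0.39 (adjusted p = 0.039, up to 0.232 over the alternatives) and in Epcam-positive cells by 1.62 ± 0.39 (adjusted p = 0.0221, up to 0.439). Brip1, a helicase gene of DNA repair 216 kb on the far side, was not called in any comparison with MEF in the main fit. At day 10 it passed as a fall in 5 of 22 alternatives (log2 -1.3, adjusted p = 0.00369 in the 10 libraries without length skew). At day 2 it passed as a rise in those 10 libraries alone (log2 1.13, adjusted p = 0.0166). Of 8 protein-coding genes listed by name as near the 6, 2 rose and 0 fell at day 10 against MEF. These were Bcas3 and the surface enzyme gene Nt5e, 596 kb from Tbx18 (log2 2.38 ± 0.63, adjusted p = 0.0307, lost in 11 of 22 alternatives). The list is not the full set of nearest genes. It leaves out Mrap2 and Cep162 on the side of Tbx18 away from Nt5e, and Wdr3 by Tbx15. It holds Med13l, which is not among the 2 nearest counted genes on a side of any of the 6. The median log2 change of the 8 was -0.23, against 0.0 over all genes tested, of which 16.0% were called. Over the alternatives 0 to 2 rose and 0 to 3 fell. In the 10 libraries without length skew these were 2 and 3, with 56.6% of all genes called.

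**Figure D4:**
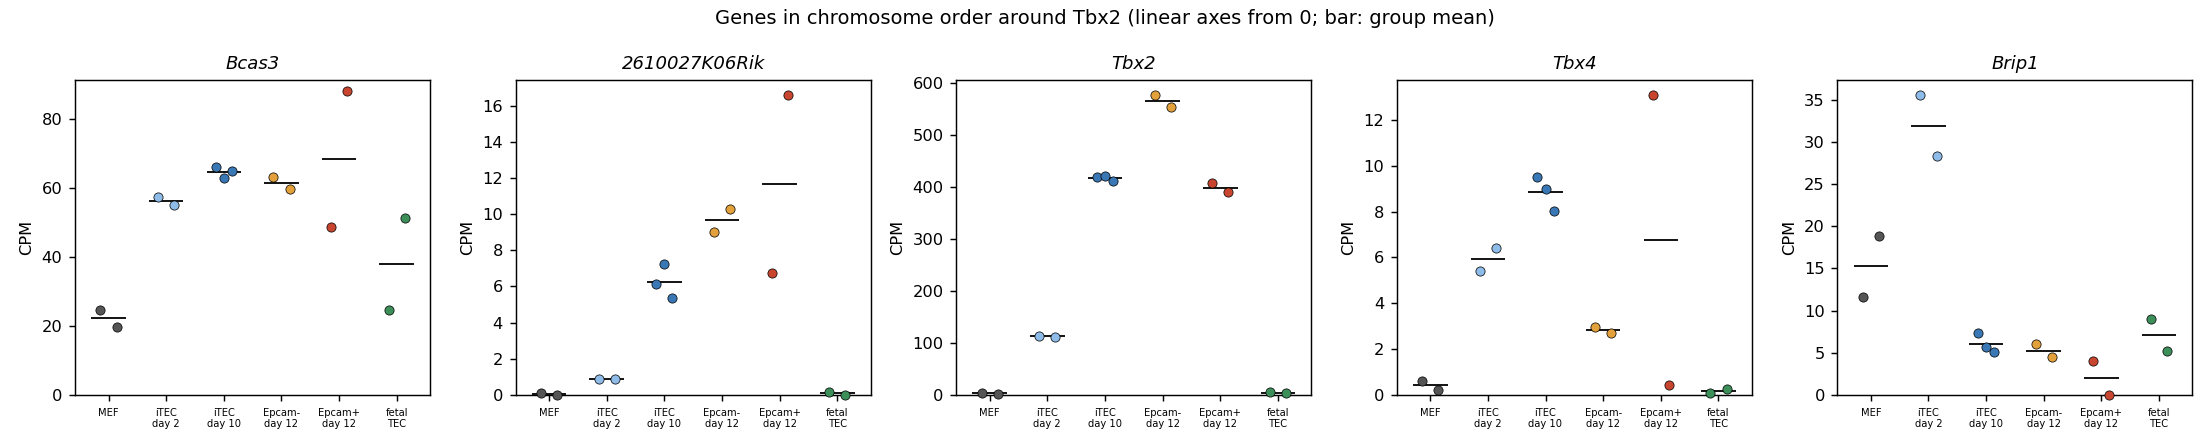
CPM (linear axes from 0, each with its own scale) of 5 genes in chromosome order around Tbx2, where points are libraries and bars are group means. 2610027K06Rik follows the order MEF, day 2, day 10 of Tbx2 at a far lower level, up to 16.6 CPM, and Brip1 is highest at day 2.

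By Pearson r of log2(CPM + 1) over the 13 libraries, the 5 genes most like Tbx2 among 13511 others were Lepr (the leptin receptor, r = 0.991), Stac2 (0.984), Ranbp17 (0.983), Slc16a1 (a lactate transporter, 0.975) and Sp7 (the osteoblast factor osterix, 0.975). Lepr averaged 0.148 CPM in MEF, 11.8 CPM at day 2, 64.5 CPM at day 10 and 0.36 CPM in fetal TEC. Sp7 averaged 0.167, 11.3, 65.4 and 0.579 CPM in the same order, so both shared the low level at either end. Without the 3 length-skewed libraries the r of all 5 was 0.984 to 0.992, and other genes ranked higher. Among the other T-box genes, Tbx4 (r = 0.746, rho = 0.599) and Tbx3 (r = 0.718, rho = 0.846) were the most like Tbx2, in an order that depends on the measure, with r of 0.803 and 0.811 over the 10 libraries. Tbx18 had an r of -0.039 over 13 libraries and of -0.67 over the 10. Tbx15 had an r of 0.274 with Tbx2 over 13 libraries and of -0.828 over the 10 without length skew, and both are low in fetal TEC. Libraries of a group share their culture state, so these values describe 6 groups rather than 13 independent points.

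Tbx4 was most like Pitx1 (r = 0.958, rho = 0.934), the homeobox gene that specifies the hind limb and is known to act upstream of Tbx4. Pitx1 measured 1.34 and 0.401 CPM in MEF, 6.06 and 6.65 CPM at day 2 and 8.99, 9.99 and 10.5 CPM at day 10. Epcam-negative libraries stood at 1.57 and 1.75 CPM, Epcam-positive ones at 11.8 and 1.59 CPM and fetal TEC at 0.0918 and 0.0608 CPM. It was thus high where Tbx4 was, also within the Epcam-positive pair, and low in the Epcam-negative pair. Over the 10 libraries without length skew r was 0.957, where Pitx1 ranked 7 among the genes most like Tbx4.

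Pitx1 rose against MEF at day 10 (log2 3.49 ± 0.88, adjusted p = 0.0261) and in Epcam-positive cells (2.94 ± 0.89, adjusted p = 0.0448), and not in Epcam-negative cells (0.92 ± 0.84, adjusted p = 0.561) or at day 2 (2.86 ± 0.89, adjusted p = 0.106). The day 10 call was lost with the replicate block and without either MEF library or any 1 day 10 library (adjusted p up to 0.189). The Epcam-positive call was lost in 16 of 21 alternatives (adjusted p up to 0.464). In fetal TEC Pitx1 was lower than in MEF (log2 -3.47 ± 0.97, adjusted p = 0.0142, up to 0.087 without MEF replicate 1 or either fetal TEC library). The gene was picked as the one most like Tbx4, so its course is no separate support for that of Tbx4.

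**Figure D5:**
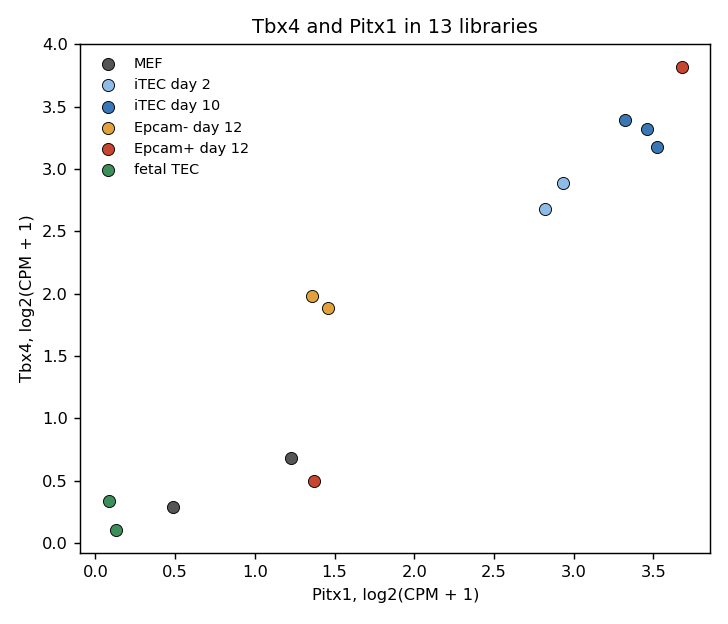
Tbx4 against Pitx1, both as log2(CPM + 1), in the 13 libraries by group. Day 10 and 1 Epcam-positive library lie at the top right, MEF, fetal TEC and the other Epcam-positive library at the lower left, and the Epcam-negative pair between them.

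Tbx15 was most like Fkbp14 (r = 0.981), a collagen chaperone of the endoplasmic reticulum, and Thbs2 (0.98), a matrix protein, while Tbx18 was most like Pxylp1 (0.986) and Tbx3 most like Fam217b (0.99). Tbx5 was most like B630019K06Rik (0.953) and the BMP modulator Twsg1 (0.943). Over the 10 libraries without length skew these genes fell in rank, Fam217b to 186 (r = 0.873), B630019K06Rik to 197 (0.914), Thbs2 to 261 (0.917), Twsg1 to 62, Fkbp14 to 52 and Pxylp1 to 45.

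Of 11 other T-box genes in the table, 8 were tested. Tbx1, a factor of the pharyngeal region that gives rise to the thymus, measured 4.98 and 3.09 CPM in MEF and 0.345 and 0.247 CPM at day 2, and it fell (log2 -3.76 ± 0.8, adjusted p = 0.0247). It was lower than in MEF at day 10 (-2.7 ± 0.66, adjusted p = 0.0217) and in fetal TEC (-3.49 ± 0.79, adjusted p = 0.0059) too. The day 2 and day 10 calls were lost with the replicate block. The day 2 call was also lost without any 1 library of MEF, day 2, day 10 or Epcam-negative cells (adjusted p up to 0.259). The day 10 call was also lost without any 1 library of MEF or day 10 (up to 0.134).

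Tbx21, the T-bet factor of lymphocytes, went from 0 counts in MEF to 0.417 and 0.455 CPM at day 2 and 0.96 to 1.19 CPM at day 10. The Epcam-negative libraries held 10.5 and 5.22 CPM, the Epcam-positive ones 18.2 and 0.103 CPM and fetal TEC 9.05 and 18.6 CPM. Against a floor of 3 counts over the MEF pair, it was at least 42.1-fold higher at day 10 (adjusted p = 0.0435), 300-fold in Epcam-negative cells (adjusted p = 0.022) and 535-fold in fetal TEC (adjusted p = 0.00516). The day 10 call was lost in 13 of 22 alternatives, without any 1 library outside the Epcam-positive pair among them (adjusted p up to 0.196), and the Epcam-negative call without any 1 library of MEF or of that group (up to 0.128). The 5 thymocyte markers summed to 947 and 299 CPM in fetal TEC and to 2.9 CPM or less in all other libraries, and their part in Tbx21 of fetal TEC was not tested. Of these other T-box genes 1 rose and 1 fell at day 10 against MEF, with a median log2 of 0.68 against 0.0 over all genes, of which 16.0% were called.

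Genes that Tbx2 or Tbx3 are known to repress were mostly not called at day 2. At day 2 against MEF, 0 of 11 rose and 1 fell, with a median log2 of 0.04 against 0.0 over all genes, of which 5.52% were called. In the 10 libraries without length skew 2 rose and 3 fell, where 39.5% of all genes were called. Gja1 was among those rises (log2 1.67, adjusted p = 0.000518). The gene that fell was Ndrg1, a growth arrest and stress gene, from 57.7 and 71.4 CPM to 7.11 and 6.57 CPM (log2 -3.24 ± 0.36, adjusted p = 0.00087). It stood at 23.0 to 24.2 CPM at day 10 (-1.45 ± 0.3, adjusted p = 0.00955) and at 101 and 93.5 CPM in fetal TEC. The day 10 call of Ndrg1 was lost without MEF replicate 2 and with the replicate block.

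At day 10 against MEF, 3 of the 11 rose and Ndrg1 alone fell, with a median log2 of 0.44 and 16.0% of all genes called. Over the alternatives 2 to 5 rose and 0 to 2 fell. Cdh1, the E-cadherin gene of epithelia, rose from 0.138 and 0.361 CPM to 42.4 to 46.6 CPM (log2 7.49 ± 0.47, adjusted p = 2.68e-05), and the gap junction gene Gja1 by 1.99 ± 0.43 (adjusted p = 0.0132, up to 0.121 without MEF replicate 1 or 2). Shisa3 rose at a ratio of 273 over 3 counts in MEF (95% counting interval 93.1 to 1325). In fetal TEC, Cdh1 stood at 299 and 315 CPM, Shisa3 at 3.2 and 10.7 CPM and Gja1 at 94.9 and 92.9 CPM. The part of Tbx2 or Tbx3 in the levels of the listed genes was not tested. Of the 11 genes, 3 rose and 4 fell in fetal TEC against MEF, where 57.8% of all genes were called. The cell cycle inhibitor gene Cdkn1a did not pass (0.44 ± 0.4, adjusted p = 0.536), at 815 to 828 CPM against 520 and 690 CPM in MEF. The sum of 9 TEC markers went from 31.9 and 23.5 CPM in MEF to 4161 to 4500 CPM at day 10, and its part in the rise of Cdh1 was not tested.

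Of 7 genes that Tbx4 or Tbx5 are known to activate, 5 were tested. By edgeR or the Wald test of DESeq2, 0 were called against MEF at day 2, day 10 or in either group of day 12. Of all genes, edgeR called 5.52% at day 2, 16.0% at day 10, 11.9% in Epcam-negative and 20.3% in Epcam-positive cells. The Wald test called 13.8, 24.0, 21.9 and 36.5% in the same order. With 5 genes, a count of 0 says little beside these shares. At an unadjusted p under 0.05 there was 1 at day 2 and 0 in the other groups. The medians of log2 change were -0.45 at day 2 and -0.07 at day 10. In the 10 libraries without length skew 0 rose and 1 fell at day 2 (39.5% of all genes called). At day 10, 1 rose and 1 fell in them (56.6% of all genes). Fgf10, the limb bud signal downstream of both factors, measured 6.97 and 7.22 CPM in MEF, 5.86 and 6.9 CPM at day 2 and 2.84 to 3.33 CPM at day 10 (log2 -1.23 ± 1.04, adjusted p = 0.496). Wnt2b, a Wnt ligand with the smallest p of the list at day 10, measured 6.21 and 5.5 CPM in MEF, 4.55 and 4.04 CPM at day 2, and 42.7 to 47.9 CPM at day 10. Both Epcam-negative libraries were near that (36.6 and 44.8 CPM). Its day 10 libraries lay above MEF without overlap, but the change did not pass (log2 2.93 ± 1.38, adjusted p = 0.191). It passed in 4 of 22 alternatives: only the groups compared, without either fetal TEC library, and in the 10 libraries without length skew (adjusted p = 2.48e-06). The fetal TEC libraries held 5.59 CPM and 0 counts of Wnt2b. Sall4, another target in the limb, was listed at 0 in all 13 libraries.

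Of 30 tested regulators of limb and trunk mesenchyme, 0 were called at day 2 against MEF by edgeR, where 5.52% of all genes were called. An unadjusted p under 0.05 was found for 7 of them, a count given without its share over all genes. The Wald test of DESeq2 had 3 rise and 2 fall there, with 13.8% of all genes called. In the 10 libraries without length skew 8 rose and 5 fell, with 39.5% of all genes called. At day 10, 4 rose (Pitx1, Meis2, Alx1 and Msx2) and 4 fell (Pax1, Pax9, Meox1 and Foxd1), with a median log2 of 0.3 against 0.0 over all genes, of which 16.0% were called. Over the alternatives 1 to 10 of the list rose and 1 to 8 fell. Msx2, a homeobox gene of limb and skull that BMP signals induce, stood at 2.36 and 1.48 CPM in MEF, 3.57 and 3.16 CPM at day 2 and 38.4 to 40.9 CPM at day 10 (log2 4.36 ± 0.71, adjusted p = 0.00332, lost only without MEF replicate 2 among the alternatives at adjusted p = 0.0513). Meox1, a somite gene, fell from 9.22 and 10.5 CPM to 0.491 to 1.32 CPM (-3.62 ± 0.56, adjusted p = 0.00235). Foxd1 fell by 4.12 ± 0.74 in log2 (adjusted p = 0.00532, lost with the replicate block at adjusted p = 0.0628).

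Pax1 and Pax9, which work in the axial skeleton and in the thymus, were lower at day 10 than in MEF (log2 -2.67 ± 0.73, adjusted p = 0.0358, and -2.82 ± 0.69, adjusted p = 0.0224). Both calls were lost with the replicate block and without either MEF library or any 1 day 10 library. That of Pax1 was lost in 13 of 22 alternatives (adjusted p up to 0.162 for Pax1 and 0.109 for Pax9). Fetal TEC held 391 and 500 CPM of Pax1, against 0.974 to 1.06 CPM at day 10. Of the 30 regulators, 15 were higher and 9 lower in day 10 cells than in fetal TEC, where 27.6% of all genes were higher and 31.7% lower.

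BMP ligands and response genes, listed because BMP signals induce Tbx2 in other tissues, included 1 that rose at day 2 and 6 at day 10 against MEF. Of 10 tested, 1 rose and 1 fell at day 2 against MEF, and 6 rose and 0 fell at day 10, with a median log2 of 0.89 and then 1.77 against 0.0 over all genes. Of all genes 5.52 and 16.0% were called in these comparisons. At day 2 there were 4 rises and 2 falls in the 10 libraries without length skew (39.5% of all genes called). The Wald test of DESeq2 gave 4 rises and 1 fall (13.8% of all genes). By edgeR the gene that fell at day 2 was Hey1, from 7.31 and 7.18 CPM in MEF to 1.2 and 1.79 CPM (log2 -2.27 ± 0.36, adjusted p = 0.00562). That call was lost without day 2 replicate 1. At day 10 Hey1 stood at 8.25 to 8.56 CPM and was not called (0.21 ± 0.31, adjusted p = 0.744). Bmp2 went from 0.498 and 0.582 CPM in MEF to 10.9 and 11.1 CPM at day 2 (log2 4.35 ± 0.41, adjusted p = 0.000397) and 9.18 to 9.58 CPM at day 10. The call of Bmp2 held in all 22 alternatives at both times. Fetal TEC held 23.1 and 21.6 CPM of Bmp2 (log2 of day 10 against fetal TEC -1.24, adjusted p = 0.00897, lost with library size alone and with the replicate block).

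Bmp7 had no count in MEF and stood at 2.15 to 3.2 CPM at day 10, at least 111-fold higher (adjusted p = 0.000407). The BMP response genes Smad6 (log2 2.32 ± 0.37, adjusted p = 0.00295) and Bambi (3.8 ± 0.58, adjusted p = 0.00223) rose at day 10 in all 22 alternatives. Bmp4 (1.8 ± 0.48, adjusted p = 0.0333) and Id1 (1.7 ± 0.48, adjusted p = 0.0385) rose as well, but lost the call in 10 and 9 of 22 alternatives (adjusted p up to 0.239 and 0.26). Against MEF, 6 rose in Epcam-negative and 7 in Epcam-positive cells and 0 fell in either, where 11.9 and 20.3% of all genes were called. Over the alternatives the rises ranged from 3 to 9 and from 0 to 8, with at most 1 fall. In fetal TEC, 6 of the 10 rose against MEF and 1 fell, where 57.8% of all genes were called. Over the alternatives there 5 to 6 rose and 0 to 1 fell. Bmp7 stood at 103 and 114 CPM in fetal TEC. The part of BMP signals in the levels of Tbx2 was not tested.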

How the data were processed

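The authors deposited raw counts per gene symbol for the 13 libraries, with no scaling. Per the submitters' processing notes, FastQC, Trimmomatic, HISAT2, SAMtools, StringTie and DESeq2 were used with the mm10 build. Versions, settings and use of strand are not given in the sources used here. Columns named for cells without Cre were taken as MEF, the only fibroblast group without Cre in the labels. For the tests, edgeR 4.0.16 (R 4.3.3) took the counts of all 13 libraries into 1 quasi-likelihood fit with the robust option, after TMM scaling (factors 0.71 to 1.16) and the group-wise filterByExpr, which left 17004 genes. The common dispersion was 0.296. P-values were adjusted over these genes by Benjamini-Hochberg, and calls needed an adjusted p under 0.05. Counts at an unadjusted p under 0.05 carry no share over all genes. The steps were also run on simulated data, with a dispersion set below that of these data and the same in every group. That run does not show how the tests behave with the wide Epcam-positive pair.

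Marker sums, Xist and Y-linked values are CPM by library size alone. Gene positions and exon lengths came from GENCODE release M21, which held 95.7% of symbols. Length correlations used genes with at least 10 counts on average. Lower bounds take 3 counts over a group as the floor, and ratios over 1 to 3 counts have a 95% counting interval, both for counting error only. Named genes are the 6 T-box genes, Foxn1, their neighbours, up to 4 genes with the smallest p of each list and comparison, and the genes most like each (at least 5 CPM in some group). Cdkn1a, Fgf10, Sall4 and the further genes named as called were chosen after their values were seen. The genes and the lists were chosen with earlier results of these data known, so counts over them are no independent evidence. Alternatives were the size factors and the Wald test of DESeq2 1.42.0, scaling by library size, both no filter and a stricter one (1 CPM in 2 libraries), fitting only the groups compared, the replicate number as a block, leaving out each library or both Epcam-positive ones, and the 10 libraries without length skew.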

Additional observations from a re-analysis of the deposited data

How the results depend on the processing

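Counts are of the 5 T-box genes other than Tbx2 that were called. The share of all genes called differed between these fits too, so a count alone says little of these genes. For day 2 against MEF it was 20.4% with only the groups compared, 22.8% without both Epcam-positive libraries and 39.5% in the 10 libraries. In Epcam-negative cells against MEF it was 33.1% with only the groups compared and 53.2% in the 10 libraries. For fetal TEC against MEF it was 74.2% without both Epcam-positive libraries. For day 2 against MEF (1), the count was 0 with library size alone and with the replicate block, 2 with the DESeq2 Wald test, 3 with only the groups compared, without both Epcam-positive libraries and in the 10 libraries without length skew, and 0 to 3 with 1 library left out. For day 10 against MEF (3) it was 1 with library size alone and with the replicate block, and 1 to 3 over single libraries left out. For day 10 against day 2 (0) it was 5 with only the groups compared (73.2% of all genes were called there), 1 without both Epcam-positive libraries, 3 in the 10 libraries, and 0 to 1 with 1 library left out. For Epcam-negative against MEF (2) it was 1 with library size alone, 4 with only the groups compared, 0 with the replicate block, 5 in the 10 libraries, and 0 to 3 with 1 library left out. For Epcam-positive against MEF (1) it was 2 with DESeq2 size factors, the stricter filter and the Wald test, 0 with only the groups compared (0.0% of all genes) and with the replicate block, 3 in the 10 libraries, and 0 to 3 with 1 library left out. For the sort (0) it was 1 with the Wald test, 3 in the 10 libraries, and 0 to 4 with 1 library left out. For fetal TEC against MEF (2) it was 4 without both Epcam-positive libraries, and 2 to 4 with 1 library left out. For day 10 against fetal TEC (3) no alternative moved it by over 1.5 times (3 to 4 with 1 library left out). In the sort, Tbx4 (1.26), Tbx18 (0.22) and Tbx21 reversed to a log2 of -2.77, -4.22 and -6.23 without Epcam-positive replicate 1, and were 2.21, 1.17 and 1.22 without replicate 2. A lone Epcam-positive library, as here and in the 10 libraries, is assumed to vary like the other groups. The log2 change of Tbx2 ranged over the alternatives from 4.75 to 5.43 at day 2 and from 6.63 to 7.28 at day 10 against MEF. Same-numbered libraries deviated from their group means with correlations of -0.4 to 0.24 and the labels tie no number to a culture, so the replicate block is a check and not a paired design. Beyond the counts, the log2 values of the 6 genes and of the other genes followed were compared with the main fit in each alternative. They gained a call in 328 cases, lost one in 377 and changed sign with a call in either fit in 3. The remaining 5308 cases kept their side of the threshold. These include values that changed sign with no call in either fit, such as Cdh1 at day 2 (log2 0.04, range -0.52 to 0.85). Tbx2, which has no test, was compared by sign alone. The causes were not tested. Depth limits Tbx4 in MEF and fetal TEC, where libraries held 5 to 44 counts.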
